A study of Mus musculus with 2 samples.

Results

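The 8 genes described here encode enzymes that take phosphate groups off proteins or lipids in the BCR/ABL1 (BA) signalling pathway, together with Set, an inhibitor of one of these enzymes. They are Inpp5d, Ptpn1, Ptpn6, Ptpn11, Ptprc, Ppp2ca, Ppp2r1a and Set, taken by symbol from the 34745 genes of the RNA-seq tables, and each symbol had 1 row. RNA came from bone marrow LSKs, the lineage-negative Sca1+ c-Kit+ hematopoietic stem and progenitor cells, of C57BL/6 Scl/tTA-BA mice. In this tet-off model regulatory sequence of the Scl gene drives the tetracycline transactivator tTA, which switches on BA once doxycycline is withdrawn. The mice of both groups carry both transgenes. The week-0 group was still on doxycycline, and the week-3 group had been without it for 3 weeks. Each group is 1 library, sequenced from the mixed LSKs of 3 mice, so the spread between mice is not known and every comparison is between 2 libraries. Only cells in which that Scl sequence is active can express BA, and the share of such cells in the sorted LSKs is not measured in these tables.

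BA is a constitutively active tyrosine kinase. Its signal reaches the cell through phosphorylated adaptor proteins, through membrane lipids phosphorylated by PI3K, and through RAS-ERK and STAT5. Phosphatases undo these steps. SHIP1 (Inpp5d) removes a phosphate from the lipid PIP3 that PI3K makes. PTP1B (Ptpn1) and SHP1 (Ptpn6) remove phosphate from tyrosines, and PP2A, built from a catalytic subunit (Ppp2ca) on a scaffold (Ppp2r1a), removes it from serines and threonines. The name of a brake does not hold for all 8. SHP2 (Ptpn11) is best known as a tyrosine phosphatase that RAS-ERK signalling needs. CD45 (Ptprc) can activate Src-family kinases by removing an inhibitory phosphate, and the SET protein blocks PP2A.

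The tables held 6356164 reads on genes at week-0 and 3886695 at week-3. A difference is given as the log2 of the week-3 over the week-0 FPKM (fragments per kilobase of exon, scaled to the library total), with an exact Clopper-Pearson 95% interval from the reads of the gene in the 2 libraries. The interval covers counting error alone. It leaves out the spread between mice, because each group is 1 library. It also takes each read as a separate molecule, which amplified reads are not, so it can be too narrow. A gene was called higher or lower when its FPKM ratio was at least 1.5 or at most 0.67 and the interval excluded a ratio of 1. Of 12192 genes with at least 20 reads over both libraries, 21.4% were called higher and 21.4% were called lower, and their median log2 ratio was 0.07. No p-value is given, since 1 library a group allows no test of the conditions. BA itself has no row. The mouse genes Abl1 and Bcr, which share sequence with it, had log2 ratios of -0.75 (95% interval -1.03 to -0.47) and -1.07 (-1.39 to -0.76), so the tables give no check of the induction.

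The libraries also differed in genes listed as markers of cell types and in early response genes. The sorting genes Kit (1391 and 580 reads, log2 ratio -0.55) and Ly6a, which encodes Sca1 (434 and 199 reads, -0.42), were detected in both libraries. Neither was called. Of 6 genes of the LSK gate and its subsets, 3 were called lower, among them Flt3, at a log2 ratio of -2.02, and 1 higher, Slamf1, with 10 and 15 reads (1.29). All 10 mast cell markers and all 11 neutrophil markers with enough reads were called higher. The summed FPKM of the mast cell list went from 125 to 3245 and that of the neutrophil list from 2032 to 10983. Most of the neutrophil sum came from Elane (933 and 5143), Ctsg (380 and 2810), Prtn3 (189 and 1087) and Mpo (309 and 988). Ly6g of the same list had 5 reads in each library, too few for a call. The mast cell genes Tpsb2 and Mcpt4 had 0 reads at week-0. Erythroid markers were called lower in 8 of 10 cases (summed FPKM 1559 and 185), and 1, Tfrc, was called higher (140 and 238 reads, 1.48). B and plasma cell markers were called lower in 4 of 6 cases (350.2 and 82.6). Of 8 T cell markers, 2 had enough reads, Lat (501 and 134) and Trac (27 and 5), and both were called lower. Lat alone made up 15.3 and 6.71 of the summed FPKM of 20.7 and 8.71, so the sum mostly describes 1 gene. Of those with few reads, Cd3e had 5 and 0, Cd8a had 3 and 0, and Cd2 had 0 and 3. All 14 early response genes, such as Fos and Egr1, were called lower, and their share of all reads was 4.01% at week-0 and 1.18% at week-3. These differences stand beside every result below, and their part in the results was not tested. In a library of many cells, fewer cells of a type and less RNA per cell cannot be told apart.

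Of the 8 genes, 1 was called lower (Inpp5d), 1 was called higher (Set) and 6 were not called. All 8 had well over 20 reads. Both calls also passed limits of 2 and 0.5, which 14.6% of all genes passed downwards, 10.3% upwards and 24.9% in either direction. At the limits of 1.5 and 0.67, 42.8% of all genes were called in either direction. With 1 of 8 in each direction, the genes as a group were called no more often than genes in general. The 6 other genes had log2 ratios between -0.23 and 0.44, inside the range from -0.57 to 0.56 that holds the central 50% of all genes. The median log2 ratio of the 8 genes was 0.21.

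**Figure D1:**
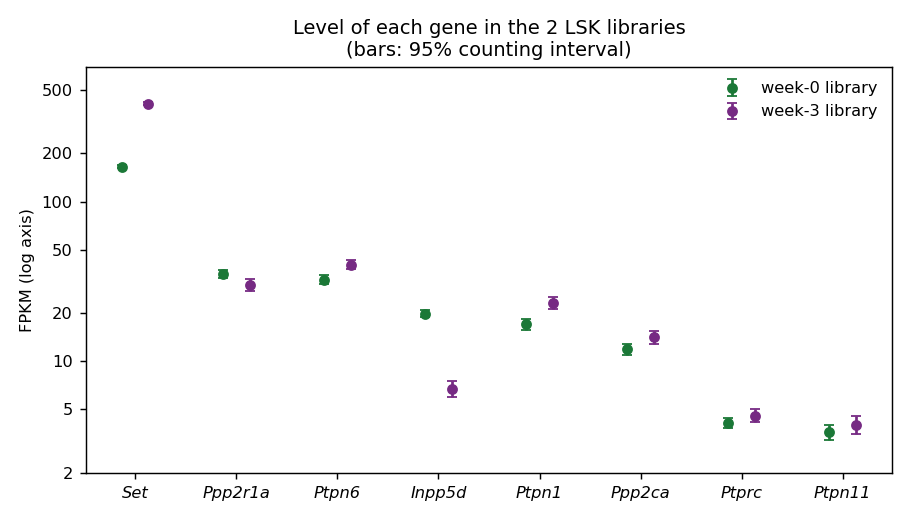
FPKM (log axis) of each of the 8 genes in the week-0 and week-3 libraries, 1 library each, with bars for the 95% counting interval. Inpp5d goes from 19.8 to 6.71 and Set from 165 to 411, while the points of the other 6 genes lie close together.

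Inpp5d encodes SHIP1, the inositol lipid phosphatase of blood cells, which removes PIP3 and so opposes PI3K-AKT signalling. The gene (ENSMUSG00000026288) is protein-coding and lies on the plus strand of chromosome 1 of GRCm38, from 87620312 to 87720507. The week-0 library held 1562 of its reads and the week-3 library 324. On the FPKM scale its level was 19.8 (95% counting interval 18.8 to 20.8) before BA induction and 6.71 (6.00 to 7.49) after it. The level at week-3 was 2.95 times lower (interval 2.61 to 3.33), a log2 ratio of -1.56 (-1.74 to -1.39), and 8.81% of all genes had a lower ratio. By level, 81.5% of the 12192 genes had a lower FPKM than Inpp5d at week-0, and 60.7% did so at week-3. Under the other scalings and with a pseudocount it lay between -1.65 and -1.43.

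SHIP1 mRNA is a known target of miR-155, an miRNA of activated blood cells. The mature miRNA is printed with its seed, bases 2 to 8, in capitals, followed by the 30 bases of the Inpp5d transcript around the perfect match to that seed, AGCATTA, in capitals. The match starts at base 515 of the 3' UTR of 1184 bases, and the 30 bases lie on the plus strand at chr1:87719826-87719855 of GRCm38.
miR-155-5p: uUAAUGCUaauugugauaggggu
Inpp5d: atgtttttaaaaAGCATTAaagaaaaccat
Of 20072 genes with a 3' UTR of at least 50 bases in GENCODE M21, 7.71% held this motif on the sense strand, and none of the other 7 genes did. A match is a description of the sequence, not proof of a working site. The host transcript Mir155hg, looked at after its values were seen, fell from 143 to 2 reads, a log2 ratio of -5.45 (-8.51 to -3.57). The host transcript and Inpp5d were thus both lower at week-3. Mature miRNAs were not analysed here.

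Ptpn6 encodes SHP1, which binds phosphorylated inhibitory receptors in blood cells through its SH2 domains. The gene (ENSMUSG00000004266) lies on the minus strand of chromosome 6, between 124720707 and 124738714. Its 1034 reads in the week-0 library gave an FPKM of 32.5, and its 785 reads in the week-3 library gave 40.3. The log2 ratio of 0.31 (0.18 to 0.45) was a 1.24-fold difference, above counting error but under the limit of 1.5 and close to the middle of all genes. An antisense gene that overlaps its exons, Gm20531, had 4 and 1 reads. Strand use in the counting is not stated, and these reads are few beside those of Ptpn6.

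Ptpn1 encodes PTP1B, a tyrosine phosphatase anchored to the endoplasmic reticulum that binds BA and takes phosphate from it. The gene (ENSMUSG00000027540) spans 167932057 to 167979385 on the plus strand of chromosome 2. Its week-0 level was 17.0 FPKM (657 reads) and its week-3 level 23.1 FPKM (545 reads), a log2 ratio of 0.44 (0.27 to 0.61). This was the second highest ratio among the 8 genes, and 69.6% of all genes had a lower one. The upper end of the interval passes the limit of 1.5, so a difference of that size was not excluded by counting.

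Ptpn11 and Ptprc had the lowest FPKM of the 8 genes, and their intervals included no difference. Ptpn11 (ENSMUSG00000043733), which encodes SHP2, lies on the minus strand of chromosome 5, between 121130533 and 121191397. Its week-0 level was 3.58 FPKM (358 reads) and its week-3 level 4.01 FPKM (245 reads), a log2 ratio of 0.16 (-0.08 to 0.40). Ptprc (ENSMUSG00000026395), which encodes CD45, lies on the minus strand of chromosome 1, between 138062861 and 138175708. Its 707 reads in the week-0 library gave 4.13 FPKM and its 478 reads in the week-3 library 4.56 FPKM, a log2 ratio of 0.14 (-0.03 to 0.31). The intervals allow at most a 1.32-fold higher level for Ptpn11 and a 1.24-fold higher level for Ptprc. The lineage antibodies of the sort include, in panels of this kind, one against B220, a form of CD45 found on B cells, so the sort selected on a product of Ptprc. Gene totals do not separate the forms of CD45. A130071D04Rik, a gene that overlaps Ptprc on the same strand without sharing exons in GENCODE M21, had 58 and 124 reads. Its part in the reads of Ptprc was not tested.

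Ppp2ca encodes the main catalytic subunit of PP2A and Ppp2r1a its main scaffold. Ppp2ca (ENSMUSG00000020349) spans 52098681 to 52127778 on the plus strand of chromosome 11. Its level was 11.9 FPKM at week-0 (579 reads) and 14.2 FPKM at week-3 (422 reads), a log2 ratio of 0.25 (0.07 to 0.44). Ppp2r1a (ENSMUSG00000007564) spans 20945311 to 20965916 on the plus strand of chromosome 17. Its level was 35.3 FPKM at week-0 (1128 reads) and 30.0 FPKM at week-3 (587 reads), a log2 ratio of -0.23 (-0.38 to -0.09). Neither gene was called. They lay on opposite sides of 0, and the log2 ratio of Ppp2ca was 0.49 above that of Ppp2r1a (interval of the difference 0.25 to 0.72).

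Set encodes a nuclear protein that inhibits PP2A and also binds histones. The gene (ENSMUSG00000054766) spans 30057378 to 30072577 on the plus strand of chromosome 2. It had the most reads of the 8, 5733 (week-0) and 8704 (week-3), and was the only one of them with more reads in the shallower library. The level was 165 FPKM (161 to 170) before BA induction and 411 FPKM (402 to 419) after it. The level at week-3 was 2.48 times higher (2.40 to 2.57), a log2 ratio of 1.31 (1.26 to 1.36), and 94.0% of all genes had a lower ratio. With TMM scaling the log2 ratio was 1.23. Set has processed copies in the genome. A comparison of its transcript with the annotated pseudogenes found 12 that were at least 90% identical over at least 300 bases, of which 2 had rows in the tables. These were Gm9531 (35 and 39 reads) and BC085271 (16 and 18 reads), 0.89% and 0.655% of the reads of Set in the week-0 and week-3 libraries. How the counting shared reads between Set and its copies is not given in the sources used here, so its level carries that uncertainty. For the other 7 genes no such pseudogene was found.

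The study centres on miR-142a, and its seeds were searched in the 3' UTRs of the 8 genes. The mature strands are printed with the seed in capitals, followed by the 30 bases around the only match found among the 8 genes, ACTTTAT, in capitals. It lies in Set, starting at base 1477 of a 3' UTR of 1635 bases, on the plus strand at chr2:30072407-30072436 of GRCm38.
miR-142a-5p: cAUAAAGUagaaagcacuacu
miR-142a-3p: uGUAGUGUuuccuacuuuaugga
Set: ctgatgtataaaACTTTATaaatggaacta
The motif of miR-142a-5p was found in 13.4% of the 20072 genes and that of miR-142a-3p, ACACTAC, in 5.55%. The host transcript Mir142hg had 192 and 87 reads in the week-0 and week-3 libraries, a log2 ratio of -0.43 (-0.81 to -0.06), and was not called.

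**Figure D2:**
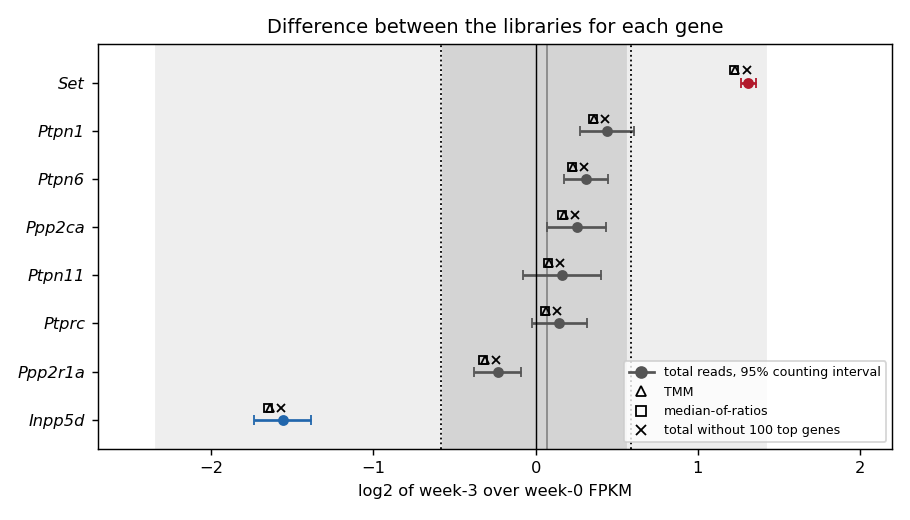
Log2 of the week-3 over the week-0 FPKM for each of the 8 genes, with bars for the 95% counting interval and symbols for 3 other scalings. The dark band holds the central 50% of 12192 genes, the light band reaches from the 5th to the 95th percentile (-2.34 to 1.42), the grey line is their median of 0.07, and dotted lines mark a ratio of 1.5 in each direction. Inpp5d (-1.56) and Set (1.31) lie outside the dark band and the other 6 genes inside it.

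The order of the levels was read on the FPKM scale, which is per length. At week-0 it was Set, Ppp2r1a, Ptpn6, Inpp5d, Ptpn1, Ppp2ca, Ptprc and Ptpn11. Each neighbour was compared by the ratio of the FPKM values and its exact counting interval. The interval included 1 for Ppp2r1a over Ptpn6 alone (ratio 1.09, interval 0.997 to 1.18), and Ptprc stood just above Ptpn11 (1.15, 1.01 to 1.31). At week-3 Inpp5d had moved from the fourth place to the sixth, below Ptpn1 and Ppp2ca, and Ptpn6 stood above Ppp2r1a by a ratio of 1.34, with an interval that excluded 1. The interval then included 1 for Ptprc over Ptpn11 alone (1.14, 0.973 to 1.33). For each of the 8 genes, the exon length behind the deposited FPKM exceeded its coding transcript and also its joined GENCODE M21 exons. The excess over the coding transcript was largest for Ptprc and smallest for Ppp2ca, and for Inpp5d the length was 12416 bases, 2.51 times its transcript. For Ptprc the length was 26950 bases, 5.31 times its coding transcript of 5074 bases, and for Ppp2ca it was 7668 bases, 1.08 times its transcript. Per length of the coding transcript, Ptprc stood at 21.9 and 24.2 (week-0 and week-3, on the scale of FPKM but with that transcript length), above Ppp2ca at 12.8 and 15.3. On that length Inpp5d held the same places, but at week-3 it stood at 16.9, below Ptpn1 and Ptprc and above Ppp2ca. The place of Ptprc and the order of Inpp5d and Ppp2ca at week-3 thus depend on the length used, while the ratios between libraries do not.

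Ratios between genes of the same library do not depend on how the libraries are scaled. All 28 pairs of the 8 genes were compared in this way, as the change of their read ratio with its exact conditional 95% interval. The interval excluded no change in each of the 13 pairs that hold Inpp5d or Set. It did so in 5 of 5 pairs of Ppp2r1a with the remaining genes, and in 1 of 10 pairs among Ptpn1, Ptpn6, Ptpn11, Ptprc and Ppp2ca. That pair was Ptpn1 over Ptprc (0.30 on the log2 scale, interval 0.06 to 0.53). Apart from Ptpn1 and Ptprc, unequal change among these 5 genes was not detectable at this depth. The intervals were not adjusted for the 28 pairs, so this 1 pair is not firm evidence of unequal change. The log2 ratio of Inpp5d was 2.87 below that of Set (interval 2.69 to 3.06), the widest gap of any pair.

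Close relatives of the 8 genes were set beside them. The SHP1 gene had more reads than the SHP2 gene, with 2.89 Ptpn6 reads for each Ptpn11 read at week-0 and 3.20 at week-3. The change of 0.15 on the log2 scale had an interval from -0.13 to 0.43. Ptpn1 over Ptpn2, which encodes the phosphatase most like PTP1B, was 2.43 at week-0 and 2.44 at week-3 (change 0.01, interval -0.31 to 0.32). The ratio of Inpp5d to Inppl1, which encodes the related SHIP2, was 42.2 and 36.0, but Inppl1, itself called lower (-1.33), had only 37 and 9 reads and the interval of the change ran from -1.32 to 1.02.

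Within the PP2A core, the reads moved towards the second gene of both subunits. Ppp2cb, the second catalytic gene, had 103 and 118 reads and was called higher, at a log2 ratio of 0.91 (0.51 to 1.30). Ppp2r1b, the second scaffold gene, had 138 and 151 reads and was called higher, at 0.84 (0.50 to 1.18). Ppp2ca held 84.9% of the reads of the catalytic pair at week-0 and 78.1% at week-3. Ppp2r1a held 89.1% of the reads of the scaffold pair at week-0 and 79.5% at week-3. On the FPKM scale, per deposited exon length, Ppp2cb made up 42.8% of the catalytic pair at week-0 and 54.0% at week-3. For the scaffold pair, Ppp2r1b made up 6.03% and 11.9%. The ratios of the first over the second gene changed by -0.65 (-1.09 to -0.21) for the catalytic pair and by -1.07 (-1.45 to -0.70) for the scaffold pair. The catalytic genes are near-identical in protein sequence, and how reads that match both were counted is not given in the sources used here.

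The other parts of the PP2A system went in both directions. Of 13 regulatory B subunits with at least 20 reads, which lead PP2A to its substrates, 2 were called higher, 2 were called lower and 9 were not called. Their median log2 ratio was 0.11, and 21.4% of all genes were called in each direction. Strn (140 and 176 reads, 1.04) and Strn3 (199 and 235 reads, 0.95), both striatins, were the higher ones. Ppp2r5b (94 and 7 reads) was lower at -3.04 (-4.39 to -1.94), and so was Ppp2r2d (225 and 66 reads) at -1.06. The B subunits with the most reads, summed over both libraries, were Ppp2r5c (906 and 759 reads, 0.45) and Ppp2r5a (664 and 437 reads, 0.11), neither of which was called. Among 5 assembly and methylation factors, Lcmt1, the methyltransferase of the catalytic subunit, was called higher at 1.02 (0.63 to 1.40), and Ppp2r4, which encodes the PP2A activator, was at -0.15.

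Among 8 PP2A inhibitors with at least 20 reads, 3 were called higher and none lower, and the median log2 ratio was 0.38, against 0.07 over all genes. Beside Set, these were Anp32a (667 and 637 reads, 0.64) and C330027C09Rik, the gene of the inhibitor CIP2A (85 and 87 reads, 0.74). Without Set, 2 of 7 inhibitors were called higher, where 21.4% of all genes were. The log2 ratio was below 0 for 3 of the 8. The call of Anp32a was lost with TMM scaling, at 0.56. Anp32b, with 3137 and 2431 reads, stood at 0.34 and was not called. Set stood out even beside its partner Anp32a, with 8.60 Set reads for each Anp32a read at week-0 and 13.7 at week-3, a change of 0.67 (0.50 to 0.84).

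**Figure D3:**
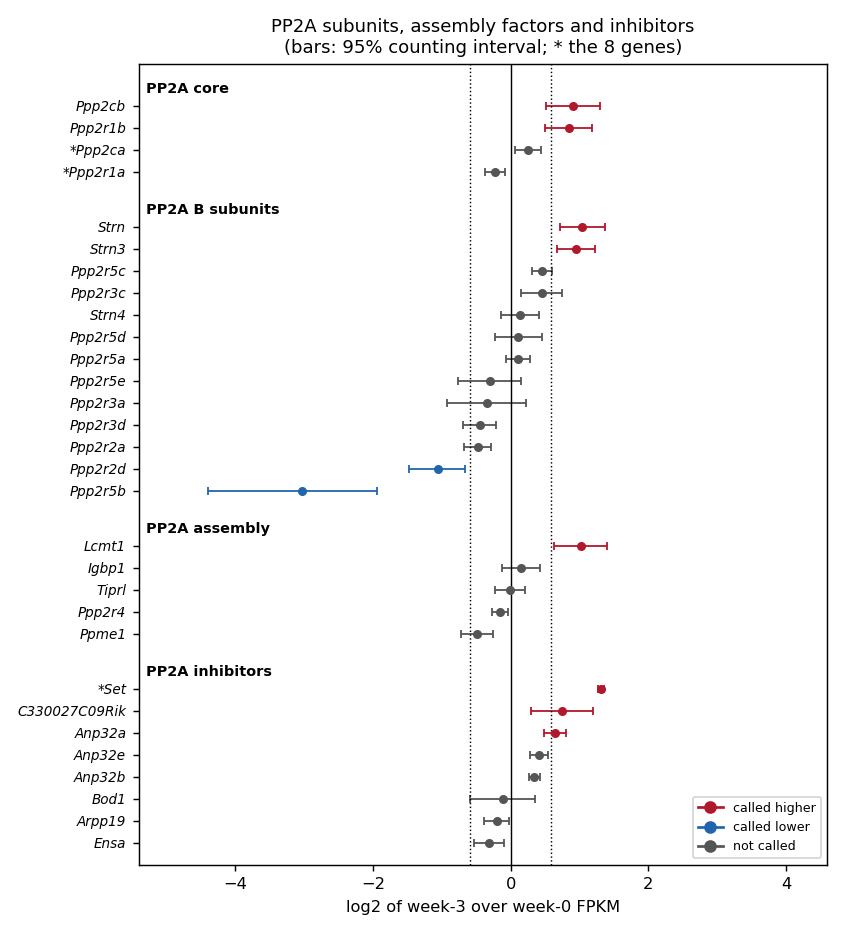
Log2 of the week-3 over the week-0 FPKM for genes of PP2A with at least 20 reads, in 4 groups, with bars for the 95% counting interval, red for called higher, blue for called lower, grey for not called, and dotted lines at a ratio of 1.5 in each direction. Among the core genes Ppp2cb (0.91) and Ppp2r1b (0.84) lie above Ppp2ca (0.25) and Ppp2r1a (-0.23), and Set (1.31) is the highest of the inhibitors.

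Among the inositol phosphatases, 24 of 26 genes had at least 20 reads, with a median log2 ratio of 0.14. Of these, 2 were called higher and 7 lower, where 21.4% of all genes were called in each direction. Inpp5d had the lowest ratio of the 24 and the most reads at week-0, while at week-3 it had fewer reads than Inpp4a. It was followed by Mtmr14, a myotubularin-family lipid phosphatase, with 782 and 168 reads and a log2 ratio of -1.51 (-1.76 to -1.27). Inpp5b (274 and 81 reads) was at -1.05 and Mtmr3 (464 and 185 reads) at -0.62. The called genes on the other side were Inpp4a, a phosphatase that acts on the lipid SHIP1 makes, with 518 and 587 reads (0.89), and Inpp5f, with 76 and 80 reads (0.78).

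The classical tyrosine phosphatases without a membrane domain gave 1 call higher and 3 lower among 13 genes with at least 20 reads. For all genes the share was 21.4% in each direction. Ptpn1, Ptpn6 and Ptpn11 were among the 9 of the 13 that were not called. Ptpn22, a lymphoid phosphatase that acts on Src-family kinases, had 190 and 183 reads (0.66), and its call was lost with TMM scaling at 0.57. Ptpn23 had 364 and 89 reads (-1.32), Ptpn9 had 88 and 22 reads (-1.29), and Ptpn4 had 43 and 14 reads (-0.91). Ptpn7, a blood cell phosphatase of ERK, had 803 and 432 reads, second to Ptpn6 by the sum of both libraries, and a log2 ratio of -0.18. Of 20 receptor tyrosine phosphatases, 8 had at least 20 reads, and 3 of these were called lower and none higher. These were Ptprs (1032 and 257 reads, -1.30), Ptprj (332 and 95 reads, -1.10) and Ptpro (62 and 6 reads, -2.66). Ptprs had more reads at week-0 than Ptprc (707) and fewer at week-3 (257 against 478). Ptpre had 817 and 422 reads and a log2 ratio of -0.24.

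**Figure D4:**
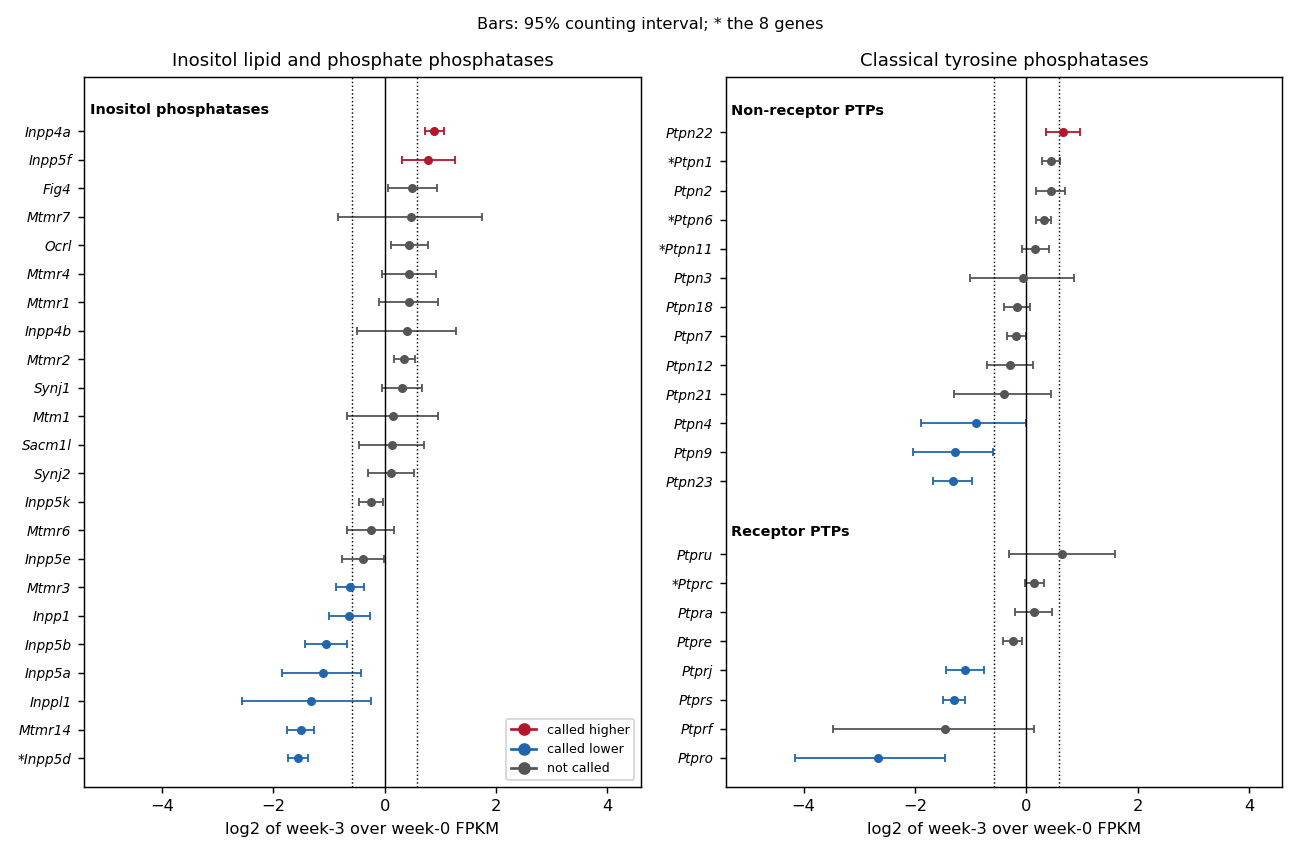
Log2 of the week-3 over the week-0 FPKM for inositol phosphatases (left) and classical tyrosine phosphatases (PTPs, right) with at least 20 reads, with bars for the 95% counting interval, red for called higher, blue for called lower, grey for not called, and dotted lines at a ratio of 1.5 in each direction. Inpp5d (-1.56) is the lowest of the inositol group, and Ptpn1, Ptpn6, Ptpn11 and Ptprc lie between the dotted lines.

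Over all of these lists, 67 genes other than the 8 had at least 20 reads, of which 10 were called higher and 14 lower. The share over all genes was 21.4% in each direction. None of the 67 had a log2 ratio above that of Set, and 2 had a ratio below that of Inpp5d. The gene of these lists with at least 100 reads that lay nearest to each of the 8 was found among 57 genes, by the difference of the log2 ratios of the 2 libraries. Mtmr14 was nearest to Inpp5d (difference 0.05), and the nearest to Set was Strn, 0.27 away. Within 0.02 lay Mtmr4 for Ptpn1, Synj1 for Ptpn6, Igbp1 for Ptpn11 and for Ptprc, and Inpp5k for Ppp2r1a. With 2 libraries this likeness is a single ratio and cannot set patterns apart further.

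SHP1, SHP2 and SHIP1 work at the membrane, where inhibitory receptors with phosphorylated tyrosine motifs recruit them. The list of 16 inhibitory receptor genes with at least 20 reads was not checked for such motifs. Of the 16, 9 were called higher and 2 lower, against 21.4% of all genes in each direction. Their median log2 ratio was 0.88. Clec12a had 552 and 770 reads (1.19), and Fcgr2b, the inhibitory IgG receptor through which SHIP1 acts, had 174 and 292 reads (1.46, interval 1.18 to 1.74). Sirpa (177 and 193 reads, 0.83) and Milr1, a receptor of mast cells (157 and 167 reads, 0.80), were also called higher. Cd72 (514 and 120 reads) and Cd33 (257 and 60 reads) were the lower ones, both at -1.39. Many of these receptors are myeloid genes, and the mast cell and neutrophil markers given above were also higher at week-3. Their part in these values was not tested.

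The adaptors and kinases around the phosphatases gave 1 call higher and 8 lower among 18 genes, against 21.4% of all genes in each direction. Their median log2 ratio was -0.50. Dok2, an adaptor phosphorylated by BA that dampens RAS signalling, had 959 and 132 reads (-2.15, interval -2.43 to -1.89). Shc1 (845 and 302 reads, -0.77), Pag1, the membrane anchor of the kinase Csk (482 and 102 reads, -1.53), and the Src-family kinase gene Lyn (541 and 212 reads, -0.64) were also called lower. Dok3 (227 and 301 reads, 1.12), a further adaptor of this family, was called higher. Dok2 stood lower than Inpp5d (-1.56) on the same scale.

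**Figure D5:**
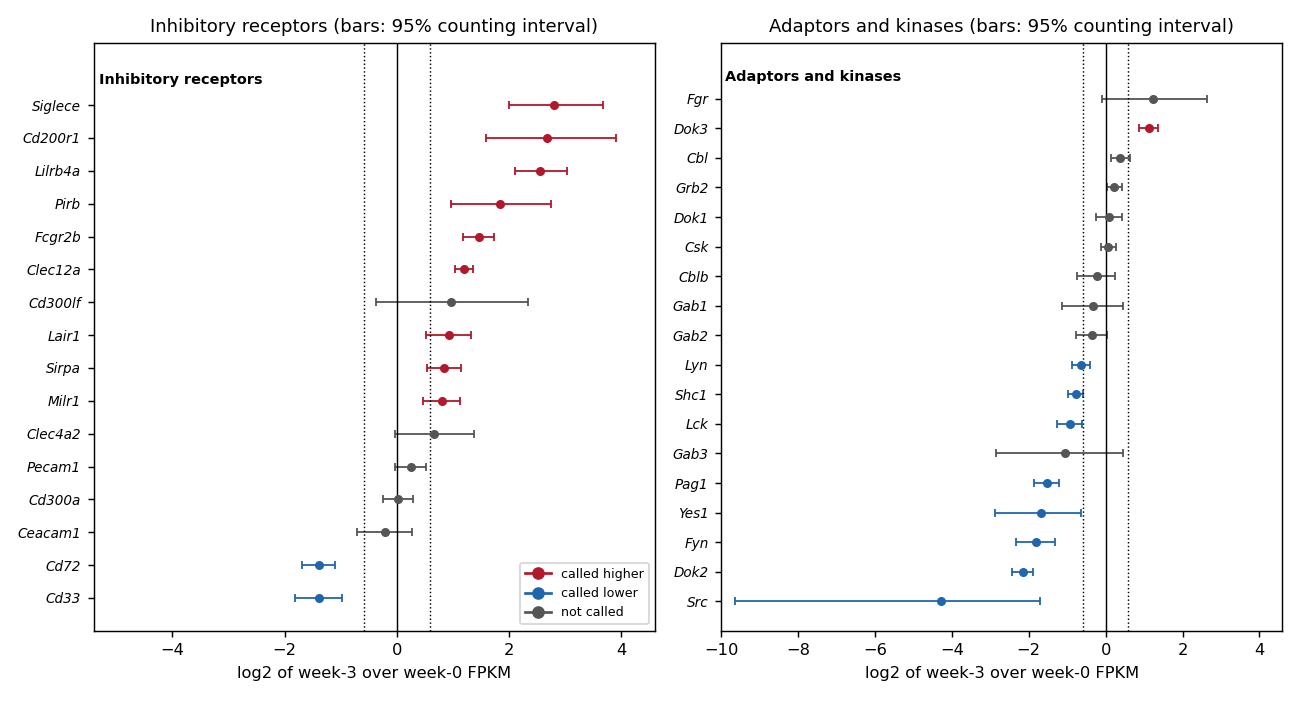
Log2 of the week-3 over the week-0 FPKM for genes of inhibitory receptors (left) and of adaptors and kinases (right) with at least 20 reads, with bars for the 95% counting interval, red for called higher, blue for called lower, grey for not called, and dotted lines at a ratio of 1.5 in each direction. Most called receptors lie to the right (9 of 11), and most called adaptors and kinases to the left (8 of 9). The x axes differ in range.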

How the data were processed

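RNA-seq of sorted LSKs was analysed for 1 library at week-0 and 1 at week-3. Per the study's methods, cDNA was made with the SMARTer Ultra Low Input kit, and trimmed paired-end reads were mapped to GRCm38 (mm10 in the submitters' processing notes) with TopHat2 2.0.9. For each gene the authors deposited counts, the whole number of reads without normalization, and FPKM, scaled by the authors by exon length and library total. The counting tool, annotation release and strand setting are not given in the sources used here. The FPKM ratio and the ratio of reads per library total differed by at most 8.1e-04 on the log2 scale.

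The tables were joined by Ensembl identifier. Intervals were exact, Poisson for a level in 1 library and Clopper-Pearson for a ratio, and 3 reads, the smallest number taken as detectable, were 0.472 CPM (week-0) and 0.772 CPM (week-3). edgeR 4.0.16 and DESeq2 1.42.0 in R 4.3.3 served only for scaling factors, since 1 library a group leaves no spread to estimate. Lengths, UTRs and pseudogenes came from GENCODE M21 (GRCm38), where the 8 genes have the coordinates of the tables, with the transcript of longest coding sequence for each gene, and blastn. Mature miRNA sequences are those of RefSeq (GRCm38.p6). Python 3.11.15 and scipy 1.17.1 were used. On simulated counts of this comparison with 12200 genes tested, 100 of 100 genes changed by 3 times were called in the right direction. So were 94 of 100 changed by 2 times. Of 12000 unchanged genes, 152 were called, and 95.7% of intervals held the true ratio. The simulated counts had Poisson counting error alone, without amplification or spread between mice. They check the calculation and do not give the error rate of calls in the real libraries.

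The 8 genes and the lists were chosen with earlier results of these data known. Named beside the 8 are, per list, at most 4 called genes in each direction by number of reads and the 2 with the most reads, fixed pairs of relatives, and the nearest gene to each of the 8. Alternatives were other scalings, limits, minimum reads, a pseudocount of 1 and the addition of pseudogene reads. Some listed genes are not reported here and were left out of the figures and of the receptor, adaptor and kinase counts.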

Additional observations from a re-analysis of the deposited data

How the results depend on the processing

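With 1 library a group, no replicate could be left out. No paired analysis was possible because each group is 1 library and the labels give no replicate numbers. Inpp5d stayed lower and Set higher, each past the limit, with TMM, median-of-ratios or a total without the 100 genes with the most reads, with a pseudocount of 1 and, for Set, with pseudogene reads added. The log2 ratio of Set moved out of its counting interval, to 1.23 with TMM and to 1.22 with median-of-ratios scaling. The other 6 genes stayed between -0.32 and 0.44 and kept their signs. With the interval alone as the limit, 4 of the 8 genes were called higher (Set, Ptpn1, Ptpn6 and Ppp2ca) and 2 lower (Inpp5d and Ppp2r1a). With limits of 2 and 0.5, the genes called higher fell to 0 among inositol phosphatases, non-receptor tyrosine phosphatases and PP2A core genes, to 1 among B subunits and to 1 among PP2A inhibitors, and the adaptors and kinases called lower fell to 5. TMM scaling left 0 non-receptor tyrosine phosphatases called higher. Among the LSK sorting genes it left 0 called higher, with Slamf1 at 1.21, and 4 called lower, with Kit added at -0.63. Of 124 alternative values, 112 stayed within the counting interval, or within 1.5 times for counts. Some of the 124 could not move, so the tally does not measure how firm the results are. Examples are the FPKM ratios of the pairs of relatives, which repeat the read ratios, and counts of 0 under stricter limits. Depth limits the genes with few reads, such as Ptpro, whose 6 reads at week-3 leave an interval from -4.16 to -1.46.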
